A study of Mus musculus with 6 samples.

Results

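Cyclins, cyclin-dependent kinases, their activators and inhibitors, and the E2F and retinoblastoma families were examined in single mouse embryos heterozygous for Tcof1. Members were chosen by name: numbered cyclin genes of the A to H, J, K and T families (so not the unnumbered Ccnc, Ccnf and Ccnk), Ccnh, which the rule names outright, numbered Cdk genes, the Ink4 and Cip/Kip inhibitors, Cdc25a, Cdc25b, Cdc25c, the E2f genes, Rb1, Rbl1 and Rbl2, on probe sets annotated with a single symbol. Ccng1, Cdkn1a and Cdkn1c were left out by the same rule. A probe set is the group of short array probes that yields 1 signal. The rule gave 53 of 18193 named genes and 121 of 45037 probe sets. Each gene was represented by its brightest probe set over the 6 arrays, and 47 of the 53 genes were bright enough to test. The name patterns also took in Ccnb1ip1, Cdkn2aip and Cdkn2aipnl, which share part of a name with the members but are not themselves cyclins or kinase inhibitors. Ccnb1 was not analysed here.

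The samples were 3 wild-type and 3 Tcof1+/- littermate embryos at embryonic day 8.5, each hybridised separately to an Affymetrix Mouse Genome 430 2.0 array after amplification from 100 ng of total RNA. The labels give neither strain nor sex nor the structure of the Tcof1 allele. Values are linear signals in arbitrary units with an equal trimmed mean on every array. Differences are heterozygote minus wild type on log2(signal + 1.87) from limma. A gene was called at a Benjamini-Hochberg adjusted p under 0.05 over the 27022 probe sets tested, and intervals are 95% intervals, not adjusted for the number of genes.

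A dividing cell commits to DNA synthesis when D-type cyclins with Cdk4 or Cdk6 phosphorylate the retinoblastoma (pocket) proteins, which then release E2F transcription factors. E2F activates cyclin E, cyclin A and replication genes; Cdc25 phosphatases switch the kinases on, and the Ink4 and Cip/Kip proteins hold them back. Mouse embryos of this stage divide rapidly. Treacle, the product of Tcof1, is a nucleolar protein needed for ribosome production, and p53 can halt the cell cycle through the inhibitor p21, the product of Cdkn1a.

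E2F factors act through short promoter sites, and some members are themselves textbook E2F targets. RefSeq promoters (GRCm38.p6, from 250 bases before to 50 after the start) were matched for 40 of the 53 members. The letters TTTCCCGC, TTTCGCGC, TTTGCCGC or TTTGGCGC occurred on either strand in 8 of them (20.0%), beside 2.60% of the 27025 genes and 2.26% of the 32851 promoters in the table. These were Cdc25a, Cdk1, Cdk2, Cdkn2a, E2f2, E2f3, E2f7 and Rbl1. Windows of 60 bases are shown for the 6 tested members with the motif upstream of the start, to show which letters were matched and where. Each runs 5′ to 3′ along the gene, with the motif, or its reverse complement where it lies on the other strand, in capitals.
Cdc25a, chr9:109875486-109875545, plus strand, motif first base 67 before the start: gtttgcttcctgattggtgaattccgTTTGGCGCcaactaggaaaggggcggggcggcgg
Cdk1, chr10:69353010-69353069, minus strand, motif first base 131 before the start: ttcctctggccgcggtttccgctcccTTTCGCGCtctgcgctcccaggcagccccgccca
Cdk2, chr10:128705158-128705217, minus strand, motif first base 140 before the start: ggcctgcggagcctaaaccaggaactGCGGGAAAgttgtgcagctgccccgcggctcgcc
E2f3, chr13:29986064-29986123, minus strand, motif first base 11 before the start: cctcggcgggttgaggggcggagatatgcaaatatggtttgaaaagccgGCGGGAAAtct
E2f7, chr10:110745215-110745274, plus strand, motif first base 198 before the start: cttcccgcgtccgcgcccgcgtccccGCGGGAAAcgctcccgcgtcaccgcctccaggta
Rbl1, chr2:157204535-157204594, minus strand, motif first base 18 before the start: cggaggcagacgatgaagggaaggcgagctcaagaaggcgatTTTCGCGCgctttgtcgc

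The 7 tested members with such a motif had differences of -0.18 to 0.19 between genotypes, with a median of -0.058, and 5 were negative. The 28 tested members whose promoter lacked it had a median of -0.12. TTTGAA or TTCGAA, the core of the cell-cycle homology region of mitotic promoters, occurred on either strand in 9 of 40 members (22.5%) and in 21.7% of all genes, so it was about as frequent in the members as elsewhere. It lay 71 and 15 bases before the start of Cdk1 and, for Ccnb2, 167 bases before the start and again at base 5 after it. The E2F letters and these letters cannot overlap each other, while an E2F match on one strand can overlap one on the other. A match describes the letters and is not evidence of binding.

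Among tissue markers, 7 of 8 neural, 6 of 7 mesoderm and somite and 6 of 6 heart genes were bright enough to test. So were 6 of 6 primitive erythroid, 4 of 5 endothelial and 7 of 7 yolk sac endoderm markers. The same filter passed 12853 of 18193 named genes, so these counts alone are not evidence that a tissue was present. Some markers that passed were dim, such as Tie1 at 9.22 to 35.04, and others bright, such as Actc1 at 4184 to 5158. Of 6 trophoblast and decidua markers 3 were on the array and 1, Dcn, was tested, while Tpbpa and Prl8a2 stayed at or below 11.9 and 18.9. The summed neural signal was 2209 to 2306 in wild types and 1488 to 1959.9 in heterozygotes, without overlap, while the sums of the other lists overlapped. Bright genes weigh most in such a sum: Sox2 was at 732 to 974 and Six3 at 39.3 to 73.0. The direction of each single marker is not given here. The summed erythroid signal was 306 in heterozygote 1 and 5788 to 13641 in the other 5 embryos, and the yolk sac sum ranged from 853 to 15640.0. The part of these tissue differences in the results below was not tested. In bulk embryo RNA, fewer cells of a type and less RNA per cell cannot be told apart. Replicates 1 and 2 of both genotypes shared a scan day, and replicate 3 of both was scanned on another.

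Tcof1 itself was lower in the heterozygotes, with signals of 382, 393 and 387 in wild types and 222, 179 and 231 in heterozygotes, replicates 1 to 3 in that order here and below. The difference was -0.88 (SE 0.12, limma adjusted p = 0.0352), and the heterozygote mean was 54.5% of the wild-type mean. Of the genes left out by the rule, Ccng1, the p53-responsive cyclin G1 gene, averaged 492 ± 8.27 in wild types and 2840.3 ± 564 in heterozygotes (SD, n = 3 each). Cdkn1a averaged 72.0 ± 16.3 and 662 ± 243.

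Beside those genes, no tested member was called in either direction. With limma 0 of 47 members passed, where 0.0814% of all tested probe sets and 0.124% of the 12853 tested named genes did. The smallest adjusted p of a member was 0.742. At an unadjusted p under 0.05, 4 members were higher (E2f8, Cdk7, Ccnh and Rb1) and 4 lower (E2f5, Ccne1, Cdk9 and Cdc25b), beside 3.00% and 3.89% of named genes. Heterozygotes lay wholly above wild types for 3 members and wholly below for 5, beside 5.70% and 7.31% of named genes. The 22 calls over all probe sets became 8 without wild type 1, 11 without wild type 2 or wild type 3, and 12 without heterozygote 2, while the members had 0 calls in each case.

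For most members the intervals were narrow. The interval lay within a 1.5-fold change either way for 36 of 47 members (76.6%), beside 60.6% of named genes, and within 2-fold for 44. The 3 members with wider intervals were Cdk20, E2f2 and E2f5. The median difference over the 47 members was -0.084, beside -0.012 over all named genes, with 31 negative (66.0%, beside 52.7%) and 16 positive. That median was -0.048 without wild type 3 and -0.050 without heterozygote 1. Relative to the wild-type mean, the median over members was -0.10, -0.010 and -0.052 in heterozygotes 1, 2 and 3, and -0.0036, 0.012 and 0.027 in wild types. Heterozygote 1 was the lowest, and heterozygote 2 lay close to wild type 1. The difference had the same sign on both scan days for 31 of 47 members (66.0%, beside 51.1% of named genes).

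**Figure D1:**
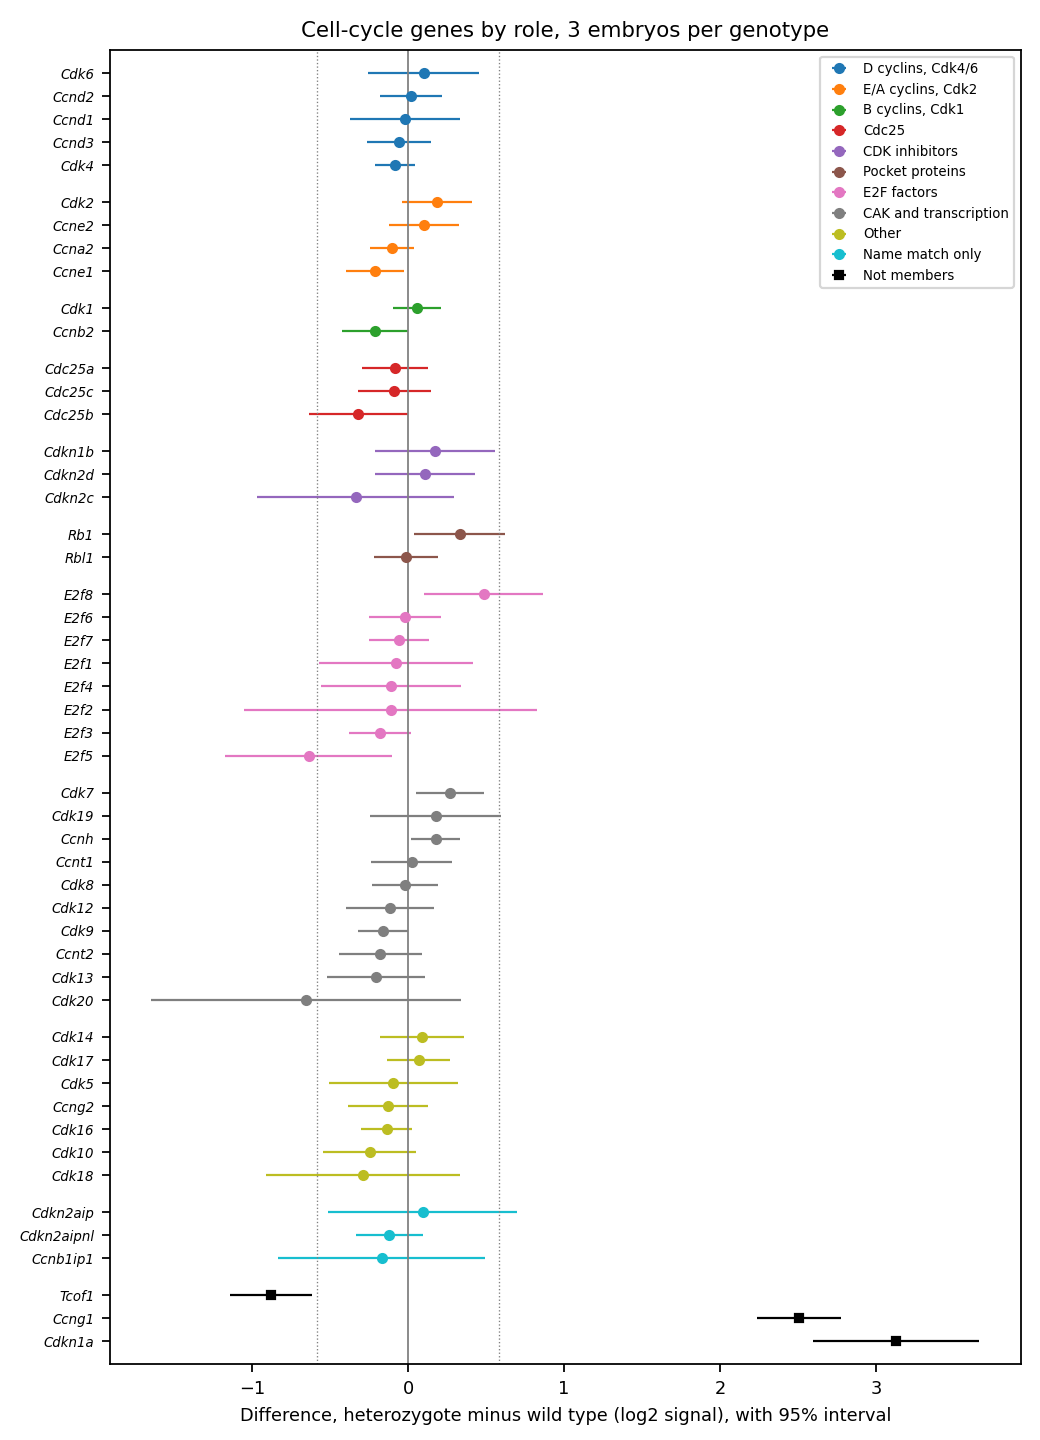
Difference between heterozygotes and wild types (x axis, log2) with 95% intervals from limma for the 47 tested members by role, and for Tcof1, Ccng1 and Cdkn1a, which are not members (squares); dotted lines mark a 1.5-fold change. Members lie between -0.65 and 0.49, while Cdkn1a is at 3.13.

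The D-type cyclins and their kinases, which start the cycle, all had intervals within a 1.5-fold change. Ccnd2, the cyclin D2 gene, gave 3354, 3886 and 3139.5 in wild types and 3232, 3791 and 3478 in heterozygotes. The groups overlapped, and the difference was 0.019 (-0.18 to 0.22). Ccnd1, the cyclin D1 gene, gave 625, 669 and 855 in wild types and 584, 873 and 673 in heterozygotes. Wild type 3 and heterozygote 2 were high, and the difference was -0.020 (-0.37 to 0.33), being 0.14 for the first scan day and -0.34 for the other; it was 0.11 without heterozygote 1, 0.11 without wild type 3 and -0.18 without heterozygote 2. Cdk4, a kinase that cyclin D activates, gave 3577, 3718 and 3768 in wild types and 3428, 3630.1 and 3378 in heterozygotes. Heterozygotes 1 and 3 were below every wild type and heterozygote 2 was not, with a difference of -0.084 (-0.21 to 0.042; limma adjusted p = 0.848). Ccnd3 differed by -0.061 and Cdk6, the other cyclin D kinase, by 0.10.

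Cyclin E, cyclin A and Cdk2 carry the cell into and through DNA synthesis, and all 4 tested members of this group also had intervals within 1.5-fold. Ccne1, the cyclin E1 gene, gave 2004, 2334 and 2487 in wild types and 1941, 1911 and 2022 in heterozygotes. Heterozygotes 1 and 2 were below all wild types and heterozygote 3 was just above the lowest, with a difference of -0.21 (-0.40 to -0.024; SE 0.083; limma adjusted p = 0.781). The other Ccne1 probe set differed by -0.047. Ccna2, the cyclin A2 gene, gave 1845, 1924 and 1913 in wild types and 1843, 1725 and 1728 in heterozygotes. Every heterozygote was below every wild type, heterozygote 1 by a narrow margin, and the difference was -0.10 (-0.24 to 0.039; limma adjusted p = 0.840). Ccne2, the second cyclin E gene, and Cdk2 differed by 0.10 and 0.19. Ccna1, the germ-line cyclin A gene, had signals of 2.36 to 12.8 and was not tested.

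Of the mitotic genes, Cdk1 and Ccnb2 had differences of opposite sign, and neither was called. Cdk1, the kinase that drives entry into mitosis, gave 2047, 1904 and 2132 in wild types and 2084, 2218 and 2037 in heterozygotes. The groups overlapped, with a difference of 0.060 (-0.094 to 0.21). It was 0.12 for the first scan day and -0.066 for the other, and 0.015 without wild type 2, 0.025 without heterozygote 2 and 0.10 without wild type 3. Ccnb2, the cyclin B2 gene, gave 1361, 1108 and 1240.1 in wild types and 1166, 1027 and 1006 in heterozygotes. Heterozygotes 2 and 3 were below every wild type and heterozygote 1 was not, with a difference of -0.21 (-0.42 to 0.0013; limma adjusted p = 0.793), or -0.14 without wild type 1. Ccnb3, a meiotic cyclin gene, had signals of at most 8.83 and was not tested.

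All 3 genes of the Cdc25 phosphatases, which remove inhibitory phosphates from the kinases, had negative differences, and none was called. Cdc25b gave 145, 165 and 136 in wild types and 127, 125 and 104 in heterozygotes. Every heterozygote was below every wild type, with a difference of -0.32 (-0.64 to -0.0018; SE 0.14; limma adjusted p = 0.793). Cdc25a and Cdc25c differed by -0.085 and -0.088. The other Cdc25c probe set, at 198 to 258 and singled out after its values were seen, differed by -0.24 (SE 0.11, limma adjusted p = 0.801). On that one every heterozygote was below every wild type. A further Cdc25a probe set, singled out after its values were seen, gave 512, 611 and 505 in wild types and 465, 388 and 379 in heterozygotes. Every heterozygote was below every wild type, with a difference of -0.40 (SE 0.12, limma adjusted p = 0.653). A dim probe set for Cdc25a, at 6.76 to 35.6, differed by 0.77, with every heterozygote above every wild type by a narrow margin.

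Of the inhibitors 3 of 5 were tested. Cdkn2c, the p18 gene of the Ink4 family, gave 38.0, 44.2 and 23.6 in wild types and 26.8, 28.4 and 25.01 in heterozygotes. Wild type 3 was the lowest of all 6 embryos, so the groups overlapped, and the difference was -0.33 (-0.97 to 0.30). It was -0.16 without wild type 2, -0.58 without wild type 3, and -0.54 for the first scan day and 0.079 for the other. Cdkn2d, the p19 Ink4 gene, differed by 0.11 and Cdkn1b, the p27 gene, by 0.17 (-0.21 to 0.56). Cdkn2a and Cdkn2b, Ink4 genes linked to senescence, reached at most 17.6 and 16.1 and were not tested.

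Cdkn1b had the smallest p of all member probe sets, on its probe set with the lower mean over all arrays. That probe set was singled out after its values were seen. That one gave 80.1, 128 and 52.7 in wild types and 29.1, 42.6 and 18.2 in heterozygotes. All heterozygotes were below all wild types, with a difference of -1.47 (SE 0.36, limma adjusted p = 0.560), being -1.48 for the first scan day and -1.45 for the other. The Cdkn1b probe set that was brighter over all arrays, shown for comparison and likewise picked after values were seen, gave 64.4, 87.5 and 69.3 in wild types. It gave 89.9, 82.0 and 76.4 in heterozygotes, with overlap and the opposite sign. In wild types it averaged less than the other probe set, 73.7 against 86.9, although wild type 3 went the other way. In heterozygotes it averaged 82.7 against 29.96. The log2 signal of the 3′ Gapdh control minus that of its 5′ control depends on how intact the RNA was and how completely it was copied. It was 0.85, 1.04 and 0.84 in wild types and 0.81, 0.68 and 0.81 in heterozygotes. These groups did not overlap either, and the part of this difference in the disagreement was not tested.

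Rb1, the retinoblastoma gene, lay higher in every heterozygote without being called. It gave 220.5, 205 and 195 in wild types and 234, 308 and 245 in heterozygotes. Heterozygote 2 was the highest, and the difference was 0.33 (0.041 to 0.62; SE 0.13; limma adjusted p = 0.781). It was 0.34 for the first scan day and 0.32 for the other, and 0.21 without heterozygote 2. Rbl1, the p107 gene, gave 489.6, 452 and 503 in wild types and 445, 500.0 and 483 in heterozygotes, which overlapped, with a difference of -0.016 (-0.22 to 0.19). A dimmer Rbl1 probe set, at 35.0 to 62.6 and singled out after its values were seen, differed by -0.40 (SE 0.20, limma adjusted p = 0.810), with every heterozygote below every wild type, and the mean of the tested Rbl1 probe sets differed by -0.21. Rbl2, the p130 gene, had signals of 8.75 to 16.6 and was not tested.

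Of the 8 E2F factors 7 had negative differences and 1 a positive one, with a median of -0.095. E2f8, an atypical E2F that represses E2F targets, was the positive one and had the smallest p of the 47 members. It gave 334, 369 and 525 in wild types and 539, 666 and 496 in heterozygotes. Wild type 3 lay above heterozygote 3, so the groups overlapped. The difference was 0.49 (0.10 to 0.87; SE 0.17; limma adjusted p = 0.742), with 0.77 for the first scan day and -0.083 for the other. E2f7, the related repressor, differed by -0.058 (-0.25 to 0.14).

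E2f5, which works with pocket proteins as a repressor, had the most negative difference of an E2F factor. Its brightest probe set gave 3023, 3692 and 2429 in wild types and 2968, 1424 and 1707 in heterozygotes. Heterozygotes 2 and 3 were low and heterozygote 1 was within the wild-type range. The difference was -0.64 (-1.17 to -0.10; limma adjusted p = 0.774), and -0.95 without heterozygote 1 or -0.42 without heterozygote 2. The other E2f5 probe sets, at 697 to 891, differed by 0.11 and 0.10, so the probe sets gave no common direction for this gene.

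Among the activator E2Fs, E2f1 gave 115, 124 and 131 in wild types and 123, 80.9 and 159.8 in heterozygotes. Heterozygote 2 lay below and heterozygote 3 above every wild type, and the difference was -0.078 (-0.57 to 0.42), or 0.18 without heterozygote 2 and -0.30 without heterozygote 3. E2f3 differed by -0.18 (-0.38 to 0.016), with every heterozygote below every wild type by a narrow margin. The other E2f3 probe set, at 38.0 to 101 and singled out after its values were seen, differed by -0.58 (SE 0.26, limma adjusted p = 0.793). There too every heterozygote was below every wild type. E2f2 was dim, at 15.8 to 46.0, and differed by -0.11. The repressive E2f4 and E2f6 differed by -0.11 and -0.021.

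**Figure D2:**
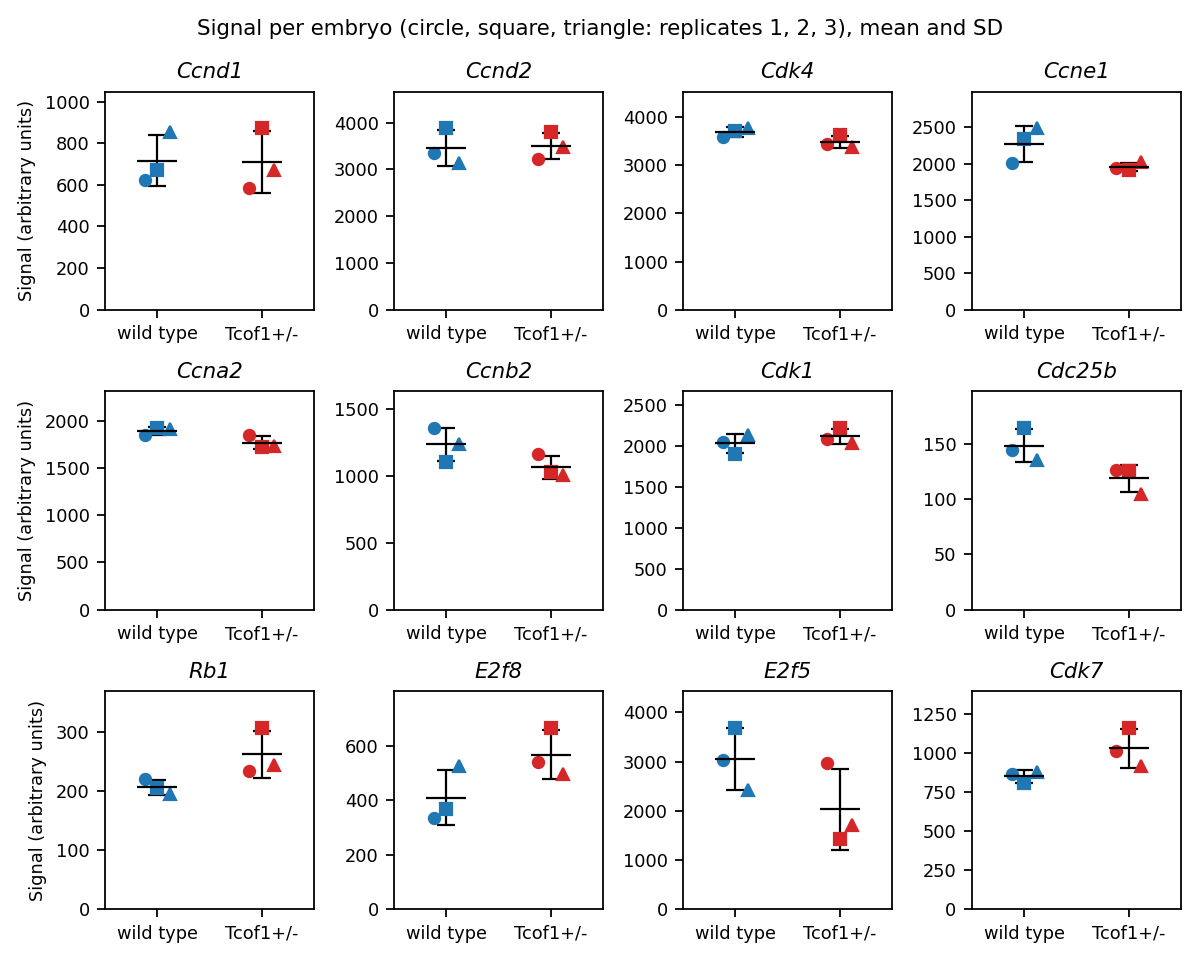
Signal of 12 members in each embryo (y axis from 0, arbitrary units) by genotype, with replicates 1, 2 and 3 as circles, squares and triangles and the mean ± SD in black. The genotypes overlap for Ccnd1, Ccnd2, Cdk4, Ccne1, Ccnb2, Cdk1, E2f5 and E2f8. Rb1 and Cdk7 are higher in every heterozygote, and Cdc25b and, by a narrow margin, Ccna2 are lower.

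Cyclin H and Cdk7 belong to the complex that activates other Cdks and also serves in the transcription factor TFIIH. Both genes lay higher in every heterozygote without being called. Mnat1, a partner gene of this complex from the list of partners below, differed by 0.029 (-0.19 to 0.25), and its groups overlapped. Cdk7 gave 866, 807 and 880.3 in wild types and 1013, 1165 and 915 in heterozygotes. Its difference was 0.27 (0.053 to 0.49; SE 0.10; limma adjusted p = 0.750), with 0.38 for the first scan day and 0.056 for the other, and 0.18 without heterozygote 2. Ccnh gave 1588, 1451 and 1566 in wild types and 1658, 1737 and 1809 in heterozygotes. Its difference was 0.18 (0.021 to 0.33; SE 0.069; limma adjusted p = 0.781). The 3 Ccnh probe sets differed by 0.14 to 0.18, and the 5 of Cdk7 by -0.12 to 0.31.

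Of the 10 members of Cdk activation and transcription, 6 had negative and 4 positive differences. Cdk9, the kinase of the elongation factor P-TEFb, gave 1550.0, 1441 and 1572 in wild types and 1293, 1393 and 1397 in heterozygotes. Every heterozygote was below every wild type, at -0.16 (-0.32 to -0.0023; limma adjusted p = 0.793). The other Cdk9 probe set, at 52.5 to 77.5, differed by 0.35, with every heterozygote higher. Its cyclins Ccnt1 and Ccnt2 differed by 0.022 and -0.18. Cdk12 and Cdk13, kinases of the RNA polymerase II tail, differed by -0.11 and -0.20, and the Mediator kinases Cdk8 and Cdk19 by -0.018 and 0.18. Cdk20 was dim, at 8.29 to 37.8, with a difference of -0.65 (-1.65 to 0.34).

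The remaining members act partly outside the cell cycle. Cdk16, a kinase gene on the X chromosome, gave 1692, 1693 and 1606 in wild types and 1468, 1641 and 1439 in heterozygotes. Heterozygote 2 was within the wild-type range, and the difference was -0.14 (-0.30 to 0.028). A dimmer Cdk16 probe set, at 272 to 346 and singled out after its values were seen, differed by -0.24 (SE 0.10, limma adjusted p = 0.782). There every heterozygote was below every wild type. The dimmest tested Cdk16 probe set, at 67.2 to 135, differed by -0.35, with overlap. Cdk10 differed by -0.25, with every heterozygote lower, and Cdk18 by -0.29. Cdk5, a kinase of neurons, and the cyclin G2 gene Ccng2 differed by -0.094 and -0.13, and Cdk14 and Cdk17 by 0.088 and 0.069. A dimmer Cdk14 probe set, at 39.1 to 67.9 and singled out after its values were seen, differed by 0.55 (SE 0.19, limma adjusted p = 0.742). On it every heterozygote was above every wild type. Cdk3 was not tested. Of the genes taken in by name alone, Cdkn2aipnl gave 699.5, 610.1 and 686 in wild types and 554, 635 and 647 in heterozygotes, overlapping, with a difference of -0.12 (-0.33 to 0.094), or -0.051 without heterozygote 1 and -0.18 without wild type 2. Ccnb1ip1 and Cdkn2aip differed by -0.17 and 0.10.

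**Figure D3:**
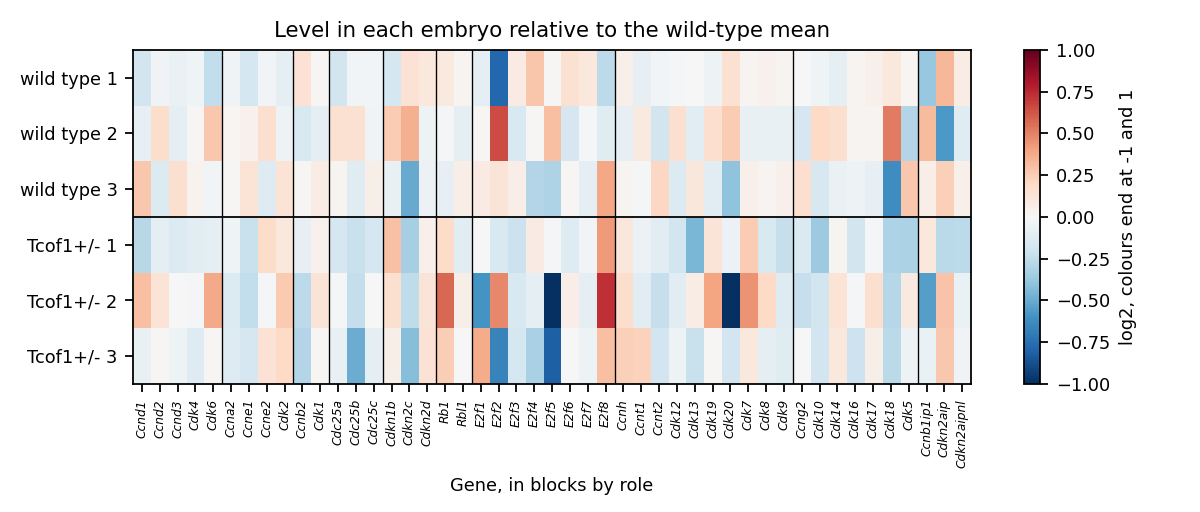
Log2 level of each tested member (columns, in blocks by role) in each embryo (rows) relative to the wild-type mean; colours end at -1 and 1. E2f5 and Cdk20 are low and E2f8 is high in heterozygote 2, and dim genes such as E2f2 and Cdk18 also vary among the wild types.

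Probe sets of a gene often disagreed. Of 30 members with more than 1 tested probe set, 14 had both positive and negative differences. Cdkn1b spanned -1.47 to 0.17, Cdc25a -0.40 to 0.77, and the 7 probe sets of Ccnd2 -0.23 to 0.53. The dimmest Ccnd1 probe set, singled out after its values were seen, gave 503, 466 and 452 in wild types and 597, 588 and 516 in heterozygotes. Every heterozygote was above every wild type, with a difference of 0.26 (SE 0.095, limma adjusted p = 0.759), unlike the brightest one. The 3 probe sets of Cdk4 stayed between -0.084 and 0.064. Averaging all tested probe sets of a gene moved Ccne1 to -0.13, Cdk4 to -0.019, Cdk7 to 0.087, Cdk16 to -0.24, E2f1 to -0.16 and E2f5 to -0.14. Over all 100 tested member probe sets 0 were called by limma, and 6 were higher and 8 lower at an unadjusted p under 0.05, beside 3.01% and 3.21% of all tested probe sets.

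**Figure D4:**
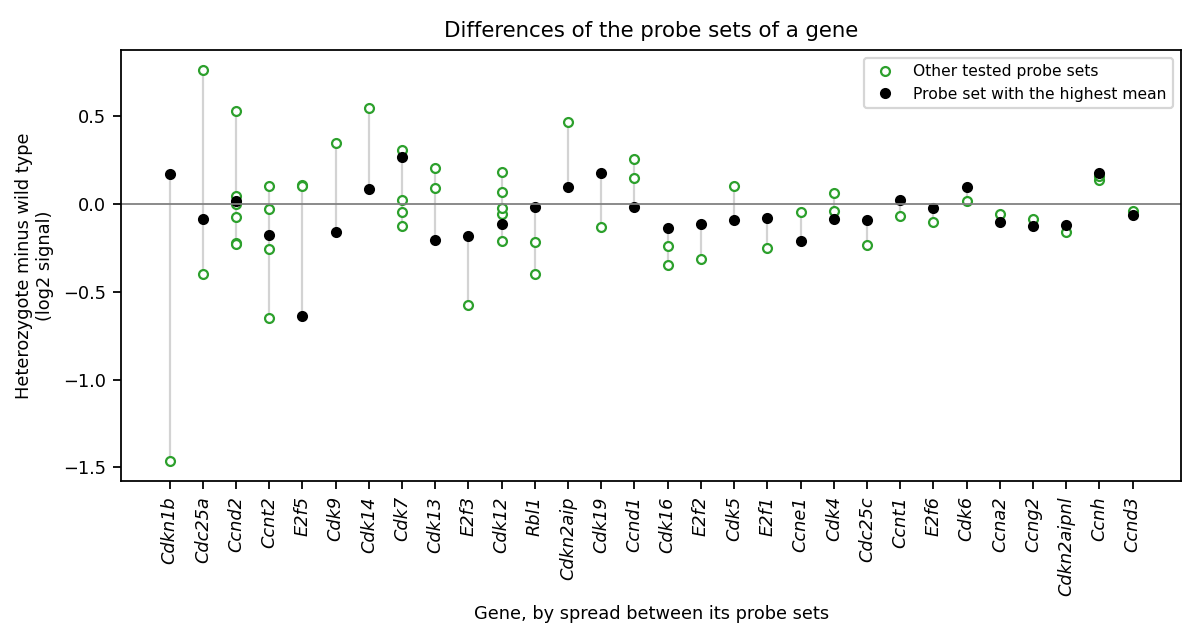
Difference between heterozygotes and wild types (y axis, log2) for every tested probe set of the 30 members with more than 1, ordered by the spread between them; filled points mark the brightest probe set. Cdkn1b has the widest spread, -1.47 to 0.17, and Ccnd3 the narrowest.

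Genes that work beside the members also had 0 calls. Of 26 partners and regulators, 14 had positive and 12 negative differences, with a median of 0.0076, and 1 was higher and 0 lower at an unadjusted p under 0.05, beside 3.00% and 3.89% of named genes. Ccnf, the cyclin F gene, gave 413, 389.9 and 434 in wild types and 448, 522 and 472 in heterozygotes, a difference of 0.22 (limma adjusted p = 0.793). Plk1, a mitotic kinase gene, gave 1078, 1119 and 1122 in wild types and 948, 987 and 1067 in heterozygotes, a difference of -0.15 (limma adjusted p = 0.810). Neither overlapped between genotypes, and their directions were opposite. Over the 26 genes, heterozygotes lay wholly above wild types for 2 and wholly below for 1, beside 5.70% and 7.31% of named genes.

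Of 24 listed E2F target genes of replication and chromatin 23 were tested, of which 17 had negative and 6 positive differences, with a median of -0.030 and 0 called; 0 were higher and 2 lower at an unadjusted p under 0.05, beside 3.00% and 3.89% of named genes. Uhrf1, which guides maintenance DNA methylation, gave 1554, 1387 and 1607 in wild types and 1191, 1385 and 1179 in heterozygotes. Heterozygote 2 lay just below the lowest wild type, and the difference was -0.28 (SE 0.089, limma adjusted p = 0.700). Gins1, of the replicative helicase, gave 839.7, 893 and 817 in wild types and 688, 768 and 761 in heterozygotes, a difference of -0.20 (limma adjusted p = 0.781). Heterozygotes lay wholly below wild types for 5 of the 23 and wholly above for 1, beside 7.31% and 5.70% of named genes. The interval was within a 1.5-fold change for 21 of the 23.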

How the data were processed

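Each array has 1 linear intensity for every probe set, as deposited by the authors, who used GCOS per the submitters' processing notes; neither its version nor its algorithm is stated in the labels. Equal trimmed means were seen in the values. Scan days were read per the file headers of the instrument records. With 3 arrays a genotype, precision is limited by their number; the labels call the samples biological replicates.

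From these, 64 control probe sets were removed, log2(signal + 1.87) was taken (1.87 is the 10th percentile), and the dimmest 40% by mean log2 value (signal under about 13.2) were not tested. limma 3.58.1 in R 4.3.3 (lmFit, then eBayes with intensity trend) had genotype as its sole term, two-sided, with Benjamini-Hochberg adjustment; the script was tested on simulated data. Symbols follow the platform annotation, and the RefSeq table changed 0 of them. Members and gene lists were chosen with earlier results of these data known. Values per embryo are given for Tcof1, the 4 members of smallest p in each direction and the member of smallest p in each role. They are also given for Ccnd1, Ccnd2, Ccna2, Cdk1, Cdk4, E2f1, Rb1 and Rbl1, and for 2 genes of each other list. Any probe set shown beyond this rule is to be read as picked after its values were seen, also where its sentence does not say so. Alternatives varied the pseudocount, scaling, filter, variance prior, array weights, blocks, arrays used and averaging of probe sets; an Xist covariate was chosen after seeing the data.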

Additional observations from a re-analysis of the deposited data

How the results depend on the processing

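Under each of the 19 alternatives 0 members were called, with 0 (no intensity trend) to 9 (array weights) at an unadjusted p under 0.05 and a smallest adjusted p in limma between 0.190 (without heterozygote 1) and 0.964 (equal array medians). The 22 calls over all probe sets became 0 with no intensity trend, 10 with the replicate block, 14 with a scan day block, 10 with Xist as covariate and 12 using the first scan day; they were 8 to 20 with 1 array left out. Same-numbered embryos did not deviate together (correlations -0.079, -0.11 and -0.024), so the numbers were not taken as pairs. The median over members was -0.094 to -0.048 with 1 array left out. Of the 19 members given per embryo, 14 kept their sign in every alternative that tested them. The other scan day alone was not among the alternatives. On that day E2f8, Cdk1 and Cdkn2c, which are among these 14, had the opposite sign, at -0.083, -0.066 and 0.079. Ccnd1 became 0.13 with averaged probe sets and 0.14 on the first scan day (-0.18 to 0.11 with 1 array left out), and Ccnd2 -0.045 on the first scan day (-0.048 to 0.11). Cdk9 became 0.093 with averaged probe sets, Rbl1 0.0051 on the first scan day (-0.061 to 0.031; -0.21 with averaged probe sets), and E2f1 was -0.30 to 0.18 with 1 array left out; the cause was not tested. Dim members, such as Cdk20 and E2f2, had the widest intervals.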
